A study of Mus musculus with 12 samples.

Results

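The genes described are 32 genes of glycolysis and of the response to low oxygen, followed in mouse kidney across the 4 groups of genotype and infusion. Members were named as a list, and every probe set annotated to a member was taken, with 1 value per gene as the mean log2 ratio of its probe sets. Of the 32 genes, 29 had a value, through 60 probe sets, among 18193 genes measured in the series. They comprised 11 of 13 glycolytic enzymes, 16 of 17 other targets of the hypoxia-inducible factors (HIF) and both HIF alpha subunits on the list. Gpi1, Eno1 and Epo were not analysed here.

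Glycolysis splits glucose into pyruvate and yields ATP without oxygen, and lactate dehydrogenase then turns pyruvate into lactate. HIF is a transcription factor whose alpha subunit is hydroxylated by oxygen-dependent prolyl hydroxylases and degraded when oxygen is ample; when oxygen is scarce, the subunit persists and raises genes of glucose uptake, glycolysis, blood vessel growth and mitochondrial turnover. In the kidney the medulla works at low oxygen tension, the proximal tubule relies mainly on oxidative metabolism, and the distal segments carry more of the glycolytic enzymes.

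The study asked which kidney genes respond to angiotensin II (ANG II), a peptide hormone that raises blood pressure, through its AT1 receptors. Wild-type mice (WT) and mice deficient in the AT1A receptor, labelled AGTR1A-KO (KO), were compared at baseline and after an ANG II infusion lasting 2 days, given at a rate of 1 ug/kg/min. All mice were males aged 2.5 months of the strain F1 (C57BL6 X 129/SvEv), and the labels give an NS diet for every group. Each of the 12 Affymetrix Mouse Genome 430 2.0 arrays held total RNA of a snap-frozen kidney, with 3 mice per group. The mouse has a second AT1 receptor gene, Agtr1b, that this deletion does not target, and the KO label concerns the whole animal as far as the sources used here say.

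Values were ratios, with each probe set divided by its own median of all 12 arrays, so a ratio of 1 is the middle of the series and levels of different genes could not be compared. For the same reason the labelled tissue could not be checked against the level of kidney genes. The targeted gene, Agtr1a, had ratios of 1.36 to 1.40 in WT baseline kidneys, 0.957 to 1.00 in WT ANG II, 0.923 to 1.04 in KO baseline and 0.917 to 1.05 in KO ANG II kidneys. The position of its probe set relative to the deletion is unknown here, so these values check the baseline labels only as a difference. Over all probe sets, the SD of the log2 ratios ran from 0.268 to 0.342 in WT ANG II, against 0.164 to 0.180 in WT baseline, 0.222 to 0.262 in KO baseline and 0.165 to 0.196 in KO ANG II arrays. Errors of log2 changes below are moderated standard errors from a single limma fit to all 12 arrays, and a gene counted as called when its p, adjusted after Benjamini and Hochberg over all 18193 genes, was under 0.05. With 3 arrays in a group, their number sets the limit of precision.

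The promoters of 5 genes that carry the results below are shown, since HIF binds the core letters ACGTG or GCGTG. Windows run from 250 bases before to 50 after the annotated start (RefSeq, GRCm38.p6), are written 5′ to 3′ on the gene's strand, and have every match to ACGTG or GCGTG on either strand in capitals; CACGTG holds ACGTG on both strands and counts as 2 matches, and overlapping matches run together. Tpi1 (chr6:124814109-124814408, minus strand), Pgk1 (chrX:106186850-106187149, plus strand) and Ldha (chr7:46845554-46845853, plus strand) are glycolytic enzymes. Higd1a (chr9:121857747-121858046, minus strand) and Bnip3 (chr7:138909457-138909756, minus strand) are HIF targets of mitochondria. For Ldha the more upstream of its 2 annotated starts is shown.
Tpi1: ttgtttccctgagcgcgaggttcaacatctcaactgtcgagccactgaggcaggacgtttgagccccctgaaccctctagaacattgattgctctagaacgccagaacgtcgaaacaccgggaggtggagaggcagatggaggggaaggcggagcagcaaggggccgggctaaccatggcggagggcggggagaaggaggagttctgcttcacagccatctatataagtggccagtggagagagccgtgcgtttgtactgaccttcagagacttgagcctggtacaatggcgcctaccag
Pgk1: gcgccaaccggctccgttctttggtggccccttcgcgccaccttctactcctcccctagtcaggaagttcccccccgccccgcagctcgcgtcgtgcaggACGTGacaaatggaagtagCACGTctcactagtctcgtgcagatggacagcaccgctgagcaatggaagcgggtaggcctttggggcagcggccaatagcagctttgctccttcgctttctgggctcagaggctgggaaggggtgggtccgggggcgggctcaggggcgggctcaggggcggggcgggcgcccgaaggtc
Ldha: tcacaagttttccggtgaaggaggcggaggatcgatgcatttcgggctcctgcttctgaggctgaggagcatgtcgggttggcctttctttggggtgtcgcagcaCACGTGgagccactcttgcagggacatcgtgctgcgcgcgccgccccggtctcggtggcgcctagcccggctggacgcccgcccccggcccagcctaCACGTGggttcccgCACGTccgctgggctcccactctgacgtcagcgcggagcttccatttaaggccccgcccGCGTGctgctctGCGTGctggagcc
Higd1a: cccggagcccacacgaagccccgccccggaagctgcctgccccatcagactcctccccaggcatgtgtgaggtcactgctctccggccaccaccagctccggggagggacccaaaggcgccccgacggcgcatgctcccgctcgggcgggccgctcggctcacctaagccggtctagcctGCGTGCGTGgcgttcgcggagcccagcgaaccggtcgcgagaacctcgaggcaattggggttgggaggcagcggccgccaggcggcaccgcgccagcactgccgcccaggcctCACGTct
Bnip3: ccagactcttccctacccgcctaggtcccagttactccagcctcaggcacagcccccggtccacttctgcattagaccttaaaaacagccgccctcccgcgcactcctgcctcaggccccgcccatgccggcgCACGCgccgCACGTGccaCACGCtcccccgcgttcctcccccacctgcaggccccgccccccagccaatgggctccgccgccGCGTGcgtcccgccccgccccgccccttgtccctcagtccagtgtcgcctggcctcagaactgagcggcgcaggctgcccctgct
Tpi1 held 0 matches in this window, Pgk1 2, Higd1a 3, Bnip3 5 and Ldha 7. A match was present in 17 of 23 windows of the glycolytic enzymes (73.9%) and in 17 of 20 of the other HIF targets (85%), beside 43.8% of all 32851 windows and 54.6% of the windows of genes measured here. The median GC content of these windows was 62.3%, 65.8%, 52.7% and 58.3% in the same order. Genes that fell and genes that rose in WT kidneys both held matches, as the results below show for Ldha and Bnip3. Ndrg1 and Epas1 had no entry in the promoter table used here. These counts take in every listed gene with an entry, with or without a value on the arrays.

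In WT kidneys under ANG II, the upper steps of glycolysis gave no call and 4 enzymes of the lower steps fell: Tpi1, Pgk1, Pgam1 and Ldha. None of the 11 glycolytic enzymes rose. Over all members, 11 of 29 were called, 3 higher and 8 lower, where 26.5% of all genes were called in this comparison, 10.9% higher and 15.6% lower. The 3 values of the WT groups did not overlap for 14 of the 29 members, beside 41.1% of all genes, and 22 of the members' 60 probe sets were called on their own, beside 24.1% of all probe sets. The median log2 change was -0.08 over the glycolytic enzymes, -0.02 over the other HIF targets and 0.03 over all genes. In bulk kidney RNA, fewer cells of a type and less RNA per cell cannot be told apart.

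Ldha, which reduces pyruvate to lactate, had ratios of 1.065, 0.986 and 1.076 in WT baseline, 0.660, 0.794 and 0.796 in WT ANG II, 1.003, 0.981 and 0.997 in KO baseline and 1.117, 1.055 and 1.056 in KO ANG II kidneys. All 3 WT ANG II kidneys lay below the other 9 kidneys, and KO ANG II kidneys lay within or just above the range of the baseline groups. Ldha fell by 0.48 ± 0.08 on the log2 scale in WT kidneys, 1.39-fold (adjusted p = 0.00106, limma, n = 3 per group). Tpi1, which interconverts the triose phosphates made by aldolase, had ratios of 1.052, 1.059 and 1.050 in WT baseline, 0.803, 0.858 and 0.804 in WT ANG II, 1.009, 0.976 and 0.961 in KO baseline and 1.025, 0.986 and 1.014 in KO ANG II kidneys. Again the WT ANG II kidneys were the 3 lowest of the series and did not overlap with WT baseline. The fall of Tpi1 was 0.36 ± 0.06 (adjusted p = 0.000913, limma), and each of its 3 probe sets was called lower on its own.

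Pgam1, the mutase that moves the phosphate of phosphoglycerate, gave 1.082, 1.059 and 1.089 in WT baseline, 0.833, 0.872 and 0.813 in WT ANG II, 1.043, 0.967 and 1.008 in KO baseline and 1.071, 0.918 and 0.992 in KO ANG II kidneys. Its WT ANG II kidneys were the lowest of the series, and it fell by 0.36 ± 0.07 (adjusted p = 0.00277, limma). Pgk1, which forms ATP from bisphosphoglycerate, gave 1.037, 1.058 and 1.029 in WT baseline, 0.879, 0.919 and 0.902 in WT ANG II, 0.985, 0.946 and 0.977 in KO baseline and 1.062, 1.055 and 1.087 in KO ANG II kidneys. WT ANG II kidneys were the lowest here too, KO baseline kidneys lay between them and WT baseline, and KO ANG II kidneys were level with or above WT baseline. Pgk1 fell by 0.21 ± 0.05 in WT (adjusted p = 0.0147, limma); with 1 probe set per gene the adjusted p was 0.0617, and in a fit to the WT groups alone 0.0665. Of its 3 probe sets 1 was called lower on its own (adjusted p = 0.0172), and the others were at -0.19 and -0.17 (adjusted p of 0.0702 and 0.0981). Pkm, pyruvate kinase, had a change of -0.18 ± 0.11 and did not pass the test (adjusted p = 0.222, limma), with ratios of 1.069, 1.107 and 0.916 in WT baseline, 0.888, 0.882 and 0.953 in WT ANG II, 1.183, 1.082 and 0.946 in KO baseline and 1.170, 1.047 and 0.917 in KO ANG II kidneys. Its WT ANG II kidneys overlapped with WT baseline, where 1 of 3 kidneys was low.

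The steps from hexokinase to aldolase gave 0 calls among 6 enzymes in WT kidneys, with log2 changes of -0.08 to 0.13, against 4 of 5 called from Tpi1 to Ldha, with changes of -0.48 to -0.18. This division of the pathway was drawn after the values were seen. Hk1 and Hk2, the hexokinases that trap glucose in the cell, were at 0.13 ± 0.16 and -0.01 ± 0.10, and the phosphofructokinase subunits Pfkl, Pfkm and Pfkp at 0.03 ± 0.07, -0.08 ± 0.08 and -0.01 ± 0.12. Over the 12 kidneys the ratios ran from 0.724 to 1.260 for Hk1, 0.853 to 1.319 for Hk2, 0.859 to 1.093 for Pfkl, 0.871 to 1.089 for Pfkm and 0.832 to 1.270 for Pfkp, and the WT groups overlapped for each. The adjusted p of the 7 enzymes without a call ran from 0.222 to 0.947 (limma). At the level of probe sets, 1 of 3 for Pfkl was called higher (0.28 ± 0.09) while the others were at -0.08 and -0.12. Gapdh, the enzyme between Tpi1 and Pgk1, was present as array control probe sets, which stood outside the fit and were not tested. Its 3' control had ratios of 1.00 to 1.03 in WT baseline, 0.893 to 0.908 in WT ANG II, 1.01 to 1.02 in KO baseline and 0.981 to 0.998 in KO ANG II kidneys, so the WT ANG II kidneys were the lowest and apart from the others.

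**Figure D1:**
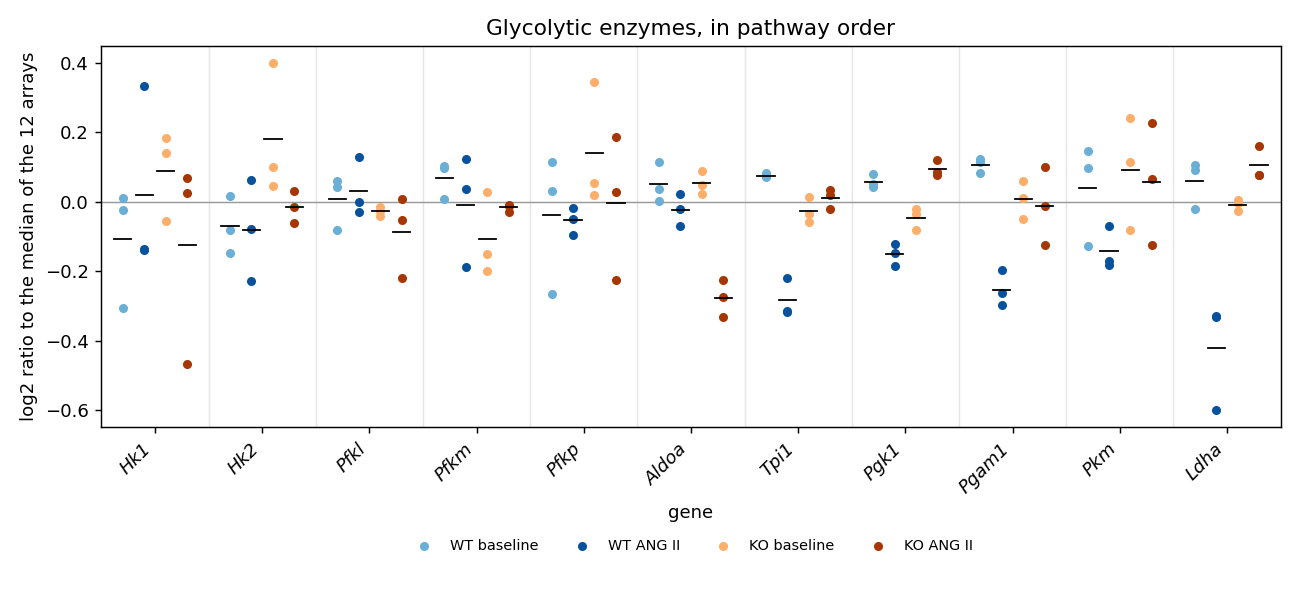
Log2 ratio of each glycolytic enzyme (horizontal axis, pathway order) to its median over the 12 arrays (vertical axis); each point is 1 kidney, colours mark the 4 groups and black bars the group means. From Tpi1 to Ldha, with Pkm as the exception, the 3 WT ANG II kidneys lie below those of the other groups, while Aldoa is lowest in the KO ANG II kidneys.

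The other HIF targets moved both ways in WT kidneys. Bnip3, Ndrg1 and Ankrd37 rose, and Higd1a, P4ha1, Car9 and Egln1 fell, which made 7 called of 16. Bnip3, a receptor of the outer mitochondrial membrane that marks mitochondria for autophagy, had ratios of 0.998, 0.854 and 1.042 in WT baseline, 1.503, 1.281 and 1.374 in WT ANG II, 0.975, 0.982 and 0.966 in KO baseline and 0.919, 1.013 and 1.002 in KO ANG II kidneys. The 3 WT ANG II kidneys were the 3 highest of the series. Bnip3 rose by 0.52 ± 0.08 on the log2 scale, 1.44-fold (adjusted p = 0.00104, limma, n = 3 per group). Ndrg1, a gene raised by low oxygen and by several other stresses, gave 0.857, 0.885 and 0.914 in WT baseline, 1.322, 1.210 and 1.281 in WT ANG II, 0.932, 1.005 and 1.120 in KO baseline and 1.043, 0.817 and 0.985 in KO ANG II kidneys. WT ANG II kidneys were again the 3 highest, and Ndrg1 rose by 0.52 ± 0.09 (adjusted p = 0.00208, limma), with each of its 5 probe sets called higher.

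Ankrd37, an ankyrin repeat gene induced by HIF, gave 0.967, 0.936 and 0.955 in WT baseline, 1.017, 1.186 and 1.510 in WT ANG II, 0.927, 0.983 and 0.954 in KO baseline and 1.398, 1.229 and 1.068 in KO ANG II kidneys. Both ANG II groups lay above both baseline groups. Its rise in WT was 0.36 ± 0.12 (adjusted p = 0.0498, limma), and it lost the call under 9 other settings (adjusted p of 0.0507 to 0.104), among them the replicate block, and without any 1 of the WT baseline arrays or of WT ANG II replicates 2 and 3 (adjusted p of 0.0838 to 0.190). Without 1 array the rise ran from 0.21, without WT ANG II replicate 3, to 0.49. In KO kidneys the change was 0.36 ± 0.12 without a call (adjusted p = 0.0746, limma). The KO change was called with quantile normalization (adjusted p = 0.0409), in a fit to the KO groups alone (adjusted p = 0.0494) and with array weights (adjusted p = 0.0338).

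Higd1a, a protein of the inner mitochondrial membrane that acts on respiratory complexes, had ratios of 1.066, 0.974 and 0.971 in WT baseline, 0.716, 0.681 and 0.584 in WT ANG II, 1.013, 1.137 and 0.975 in KO baseline and 1.150, 0.993 and 1.132 in KO ANG II kidneys. The WT ANG II kidneys were the 3 lowest of the series and apart from all others. Higd1a fell by 0.61 ± 0.09, 1.53-fold (adjusted p = 0.000736, limma), and all 3 of its probe sets were called lower. P4ha1, a catalytic subunit of the collagen prolyl hydroxylase, gave 1.066, 0.886 and 0.936 in WT baseline, 0.679, 0.639 and 0.559 in WT ANG II, 1.096, 1.183 and 1.220 in KO baseline and 1.331, 0.933 and 1.266 in KO ANG II kidneys. Again WT ANG II kidneys were the lowest, while KO kidneys lay mostly above WT baseline. P4ha1 fell by 0.62 ± 0.12, 1.54-fold (adjusted p = 0.00388, limma), and by 0.38 without a call when the arrays were quantile normalized again (adjusted p = 0.0870).

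Car9, a carbonic anhydrase of the cell surface, gave 1.093, 1.004 and 1.215 in WT baseline, 0.865, 0.698 and 0.896 in WT ANG II, 0.996, 0.836 and 0.882 in KO baseline and 1.058, 1.081 and 1.134 in KO ANG II kidneys. WT ANG II kidneys lay below WT baseline without overlap but overlapped with KO baseline. Car9 fell by 0.43 ± 0.10 (adjusted p = 0.00972, limma). Egln1, the main prolyl hydroxylase that marks HIF alpha for degradation, gave 1.011, 0.979 and 1.021 in WT baseline, 0.954, 0.816 and 0.869 in WT ANG II, 0.972, 0.950 and 1.007 in KO baseline and 1.024, 1.036 and 1.066 in KO ANG II kidneys. Its fall of 0.19 ± 0.07 was just past the threshold (adjusted p = 0.0475, limma) and lost the call under 5 other settings (adjusted p of 0.0524 to 0.124) and without any 1 of the WT baseline arrays or of WT ANG II replicates 2 and 3 (adjusted p of 0.0728 to 0.159). The 9 HIF targets without a call in WT, among them Slc2a1, the glucose transporter GLUT1, and Vegfa, the endothelial growth factor, had changes of -0.33 to 0.18 and adjusted p of 0.0833 to 0.986 (limma). Among them P4ha2, the sister subunit of P4ha1, was at -0.33 ± 0.14 (adjusted p = 0.0899, limma). With the replicate number as a block within WT, a setting added after the data were seen, P4ha2 was called lower (adjusted p = 0.0374) and was the only member whose call in WT differed under that setting.

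Markers of other cells moved with these genes in WT kidneys. Of 5 erythroid markers 3 rose and none fell, and their mean log2 ratio per array was 0.23 to 0.44 in WT ANG II against -0.16 to -0.09 in WT baseline. Of 11 endothelial markers 1 rose and 4 fell, of 13 macrophage and neutrophil markers 4 fell, and of 7 distal convoluted tubule markers 3 fell. In this comparison 26.5% of all genes were called. The share was 60% for the erythroid, 45.5% for the endothelial and 42.9% for the distal convoluted tubule markers. For the macrophage and neutrophil markers it was 30.8%, near that of all genes. The mean of the endothelial markers was -0.29 to -0.18 in WT ANG II against -0.13 to 0.07 in WT baseline, and that of the macrophage and neutrophil markers -0.54 to -0.11 against -0.38 to -0.03. The WT groups overlapped for the second list and not for the first. Ratios keep no level, so no marker could be read as absent. The 17 proximal tubule markers were called in both directions, 4 higher and 5 lower (52.9%). Of 7 intercalated cell markers 2 rose and 1 fell (42.9%). Their mean was 0.05 to 0.20 in WT ANG II against -0.07 to 0.03 in WT baseline. Of 7 thick ascending limb markers 1 fell (14.3%), and of 9 markers of collecting duct principal cells 2 fell (22.2%), with none higher in these lists. The 3' minus 5' log2 ratio, as the mean of the Actb and Gapdh array controls, was 0.036 to 0.067 in WT ANG II. It was at most 0.011 in the other groups. The controls parted in the WT ANG II arrays, with 0.150, 0.075 and 0.133 for Actb and -0.018, 0.058 and -0.060 for Gapdh. The part of these markers and controls in the changes of the glycolytic and HIF genes was not tested.

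**Figure D2:**
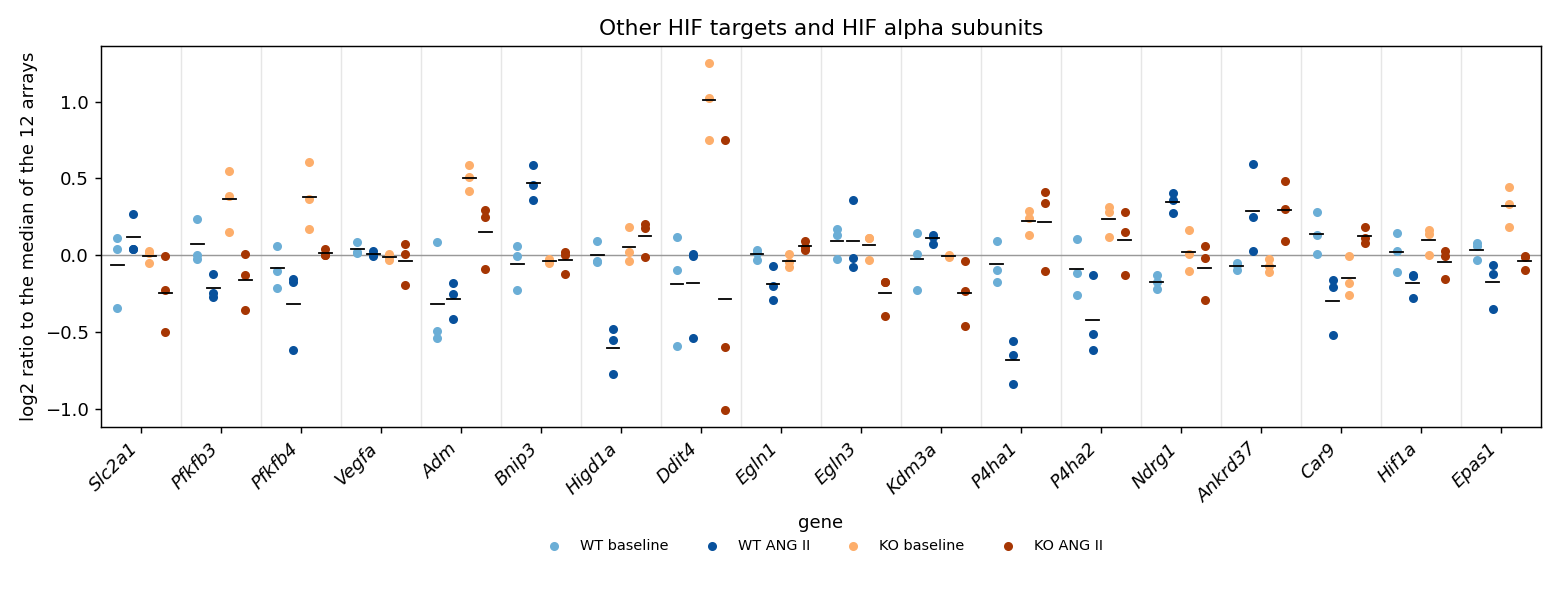
Log2 ratio of each other HIF target and of both HIF alpha subunits (horizontal axis) to its median over the 12 arrays (vertical axis); each point is 1 kidney, colours mark the 4 groups and black bars the group means. Bnip3 and Ndrg1 are highest and Higd1a and P4ha1 lowest in the WT ANG II kidneys, and Ddit4 is high in the 3 KO baseline kidneys and in 1 of 3 KO ANG II kidneys.

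In KO kidneys ANG II gave 4 calls among 29 members, all lower: Aldoa, Pfkfb3, Ddit4 and Epas1. In this comparison 12.8% of all genes were called, 5.82% higher and 7.0% lower, so the share among the members, 13.8%, was near the background. The KO groups did not overlap for 14 of 29 members, beside 38.4% of all genes, and 7 of 60 probe sets were called on their own, beside 9.91% of all probe sets. None of these 4 was called in the WT response, and the difference of the responses was called for none of them either (adjusted p of 0.0670 for Aldoa, 0.387 for Pfkfb3, 0.106 for Ddit4 and 0.495 for Epas1, limma). With 1 probe set per gene that difference was called for Aldoa at -0.36 (adjusted p = 0.0467) and for Epas1 at -0.41 (adjusted p = 0.0353), and for Aldoa also with quantile normalization (adjusted p = 0.0433) and with array weights (adjusted p = 0.0447). Other settings added KO calls. Egln3, at -0.31 ± 0.11 in KO (adjusted p = 0.0782, limma), was called lower with quantile normalization (adjusted p = 0.028). The same held in a fit to the KO groups alone (adjusted p = 0.046) and with array weights (adjusted p = 0.035). Pfkfb4 was called lower with the replicate block (adjusted p = 0.035). The median log2 change was -0.04 over the glycolytic enzymes, -0.12 over the other HIF targets and 0.05 over all genes.

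Aldoa, the aldolase that splits fructose bisphosphate into trioses, had ratios of 1.082, 1.001 and 1.027 in WT baseline, 0.953, 0.986 and 1.015 in WT ANG II, 1.035, 1.063 and 1.016 in KO baseline and 0.827, 0.855 and 0.794 in KO ANG II kidneys. The KO ANG II kidneys were the 3 lowest of the series. Aldoa fell by 0.33 ± 0.06 in KO kidneys (adjusted p = 0.00530, limma, n = 3 per group) and was at -0.07 ± 0.06 in WT (adjusted p = 0.373). All 5 of its probe sets are of the _x_at kind, whose probes can bind other transcripts; 3 were called lower in KO, and the other 2 were at -0.17 and -0.13.

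Pfkfb3 makes the fructose bisphosphate signal that activates phosphofructokinase. Its ratios were 1.178, 0.981 and 1.003 in WT baseline, 0.842, 0.920 and 0.829 in WT ANG II, 1.112, 1.463 and 1.308 in KO baseline and 1.005, 0.915 and 0.782 in KO ANG II kidneys. Of the KO baseline kidneys 2 were the highest of the series, and the third lay below 1 WT baseline kidney. Pfkfb3 fell by 0.52 ± 0.11 in KO kidneys (adjusted p = 0.0131, limma), with the call lost without KO baseline replicate 2 or KO ANG II replicate 3 (adjusted p of 0.0586 to 0.0604). In WT it was at -0.28 ± 0.11 (adjusted p = 0.0833), and its 2 probe sets were called lower at -0.51 and not called at -0.06. With the first of these as the only probe set, Pfkfb3 was thus called in WT (adjusted p = 0.0453) and its fall in KO was 0.83.

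Ddit4, an inhibitor of the growth kinase mTORC1 under stress, gave 0.935, 0.665 and 1.085 in WT baseline, 1.004, 0.996 and 0.688 in WT ANG II, 2.035, 2.377 and 1.684 in KO baseline and 1.681, 0.498 and 0.660 in KO ANG II kidneys. It spread more than any other member: KO baseline kidneys were high, and 1 of 3 KO ANG II kidneys was nearly as high as the lowest of them. Ddit4 fell by 1.29 ± 0.35 in KO kidneys, 2.45-fold (adjusted p = 0.0308, limma). This call was lost without KO baseline replicate 1 or 2 or KO ANG II replicate 2 or 3 (adjusted p of 0.0786 to 0.109) and under 2 other settings (adjusted p of 0.0646 to 0.0939), and without KO ANG II replicate 1 the fall was 1.81. Its change in WT was 0.01 ± 0.35.

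Epas1, the second HIF alpha subunit, which in kidney is known from interstitial, endothelial and glomerular cells, gave 0.977, 1.043 and 1.055 in WT baseline, 0.957, 0.786 and 0.920 in WT ANG II, 1.360, 1.260 and 1.134 in KO baseline and 0.993, 0.934 and 0.997 in KO ANG II kidneys. KO baseline kidneys lay above the other groups. Epas1 fell by 0.36 ± 0.09 in KO kidneys (adjusted p = 0.0201, limma), a call lost without KO baseline replicate 1 or 2 or KO ANG II replicate 2 or 3 (adjusted p of 0.0543 to 0.0793). In WT it was at -0.21 ± 0.09 (adjusted p = 0.0868), where its 2 probe sets parted, 1 at 0.00 and the other called lower at -0.43. The WT change of Epas1 was called lower with array weights (adjusted p = 0.0486, limma) and without WT ANG II replicate 1 (adjusted p = 0.0462). Hif1a, the subunit found in most cell types, was not called in any comparison as the mean of its probe sets. It was at -0.20 ± 0.08 in WT (adjusted p = 0.0876, limma) and at -0.14 ± 0.08 in KO (adjusted p = 0.253), with ratios of 1.103, 1.019 and 0.928 in WT baseline, 0.823, 0.913 and 0.912 in WT ANG II, 1.098, 1.001 and 1.121 in KO baseline and 0.995, 1.019 and 0.899 in KO ANG II kidneys. Its 4 probe sets disagreed in WT: 1 was called lower at -0.53, 2 were at -0.27 and -0.20, and 1 was at 0.19. The probe set called in WT (adjusted p = 0.000582 with 1 probe set per gene) was also called lower in KO at -0.35 (adjusted p = 0.0156) and higher in KO than in WT under ANG II at 0.24 (adjusted p = 0.0403). Without WT baseline replicate 3 the mean, too, was called lower in WT (adjusted p = 0.0480).

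Markers of several cell types fell along with these genes in KO kidneys, and those of the distal convoluted tubule rose. Of 13 macrophage and neutrophil markers 8 fell and 2 rose, of 10 fibroblast and pericyte markers 4 fell, of 11 endothelial markers 5 fell and 1 rose, of 6 podocyte markers 3 fell, and of 9 markers of collecting duct principal cells 3 fell (median change -0.34). Of 7 distal convoluted tubule markers 3 rose and none fell, with all 7 changes above 0 and 5 without overlap of the groups. In this comparison 12.8% of all genes were called, and the groups did not overlap for 38.4% of all genes. The mean log2 ratio of the macrophage and neutrophil markers was 0.49 to 0.94 in KO baseline arrays and -0.12 to 0.58 in KO ANG II arrays. Their part in the falls of Aldoa, Pfkfb3, Ddit4 and Epas1 was not tested.

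The difference of the responses, KO minus WT, was tested directly, and 9 of 29 members were called, 7 higher and 2 lower, beside 13.0% of all genes (8.86% higher and 4.12% lower). Tpi1, Pgk1, Pgam1 and Ldha were the glycolytic enzymes called, all with a positive difference. Among the other HIF targets the responses of Higd1a, P4ha1, Car9, Bnip3 and Ndrg1 differed. The median difference was 0.14 over the glycolytic enzymes, -0.19 over the other HIF targets and 0.01 over all genes. With genes of low spread left out, the median was 0.0074 over the glycolytic enzymes and -0.27 over the other HIF targets. Without 1 array it ran from 0.057 (without KO baseline replicate 3) to 0.18 for the enzymes and from -0.29 to -0.084 (without KO baseline replicate 2) for the HIF targets. The same WT kidneys enter the WT response and this difference. Of 7 distal convoluted tubule markers, 3 were called with a positive difference and none with a negative one, the median being 0.44 and all 7 above 0; 3 of the 7 fell in WT and 3 rose in KO kidneys. Their mean log2 ratio per array was 0.050 to 0.12 in WT baseline, -0.20 to 0.045 in WT ANG II, -0.24 to -0.10 in KO baseline and 0.087 to 0.39 in KO ANG II kidneys. The other lists of distal segments had medians below 0. Of 7 thick ascending limb markers 1 was called higher (median -0.015). Of 9 markers of collecting duct principal cells 2 were called lower (median -0.17). Of 7 intercalated cell markers 1 was called higher and 1 lower (median -0.12). The part of these marker lists in the differences of Tpi1, Pgk1, Pgam1 and Ldha was not tested.

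Ldha had a difference of 0.59 ± 0.11 on the log2 scale (adjusted p = 0.00380, limma), from a change of -0.48 ± 0.08 in WT and 0.11 ± 0.08 in KO. For Tpi1 it was 0.40 ± 0.08 (adjusted p = 0.00675), with a KO change of 0.04 ± 0.06. Pgk1 differed by 0.35 ± 0.08 (adjusted p = 0.0108), and its KO change of 0.14 ± 0.05 was above 0 but not called (adjusted p = 0.106). All 3 genes thus fell in WT and had a KO change above 0 that was not called. For Ldha and Pgk1 the KO ANG II kidneys lay above the KO baseline kidneys, while the KO groups did not overlap for 38.4% of all genes. Pgam1 differed by 0.34 ± 0.10 (adjusted p = 0.0349, limma); the call was lost under 4 other settings (adjusted p of 0.0522 to 0.156) and without any array other than WT ANG II replicates 1 and 2 and KO ANG II replicate 2 (adjusted p of 0.0516 to 0.0825).

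Of the HIF targets, Car9 had the largest difference with a call, 0.71 ± 0.15 (adjusted p = 0.00778, limma), with a KO change of 0.27 ± 0.10 that was not called (adjusted p = 0.0961). Higd1a differed by 0.68 ± 0.13 (adjusted p = 0.00519) and was at 0.07 ± 0.09 in KO. P4ha1 differed by 0.62 ± 0.18 (adjusted p = 0.0362), a call lost with quantile normalization, where it was 0.41 (adjusted p = 0.240), and without any array other than WT baseline replicate 2, WT ANG II replicate 1 and KO ANG II replicate 2 (adjusted p of 0.0502 to 0.0917). Its 2 probe sets parted, 1 being called at 0.90 (adjusted p = 0.0141) and the other not called at 0.34 (adjusted p = 0.238). In the opposite direction, Bnip3 differed by -0.52 ± 0.12 (adjusted p = 0.0129, limma), with a KO change of 0.00 ± 0.08; the adjusted p was 0.0640 with quantile normalization. Ndrg1 differed by -0.63 ± 0.13 (adjusted p = 0.00858), and in KO it was at -0.11 ± 0.09. For each of these 5 genes, then, the rise or fall in WT came with a KO change that was not called. Ankrd37 was at 0.00 ± 0.18 (adjusted p = 0.998, limma), and Ddit4, with the widest error, at -1.30 ± 0.49 (adjusted p = 0.106); without KO ANG II replicate 1 Ddit4 was called, at -1.82 (adjusted p = 0.00322). Egln1 at 0.29 ± 0.09 missed the threshold (adjusted p = 0.0631, limma) and passed it with the replicate block within WT (adjusted p = 0.0438). It also passed with array weights (adjusted p = 0.0291), without WT ANG II replicate 1 (adjusted p = 0.0191) and with 1 probe set per gene, at 0.35 (adjusted p = 0.0345). Its other probe set was at 0.22 and not called (adjusted p = 0.384).

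**Figure D3:**
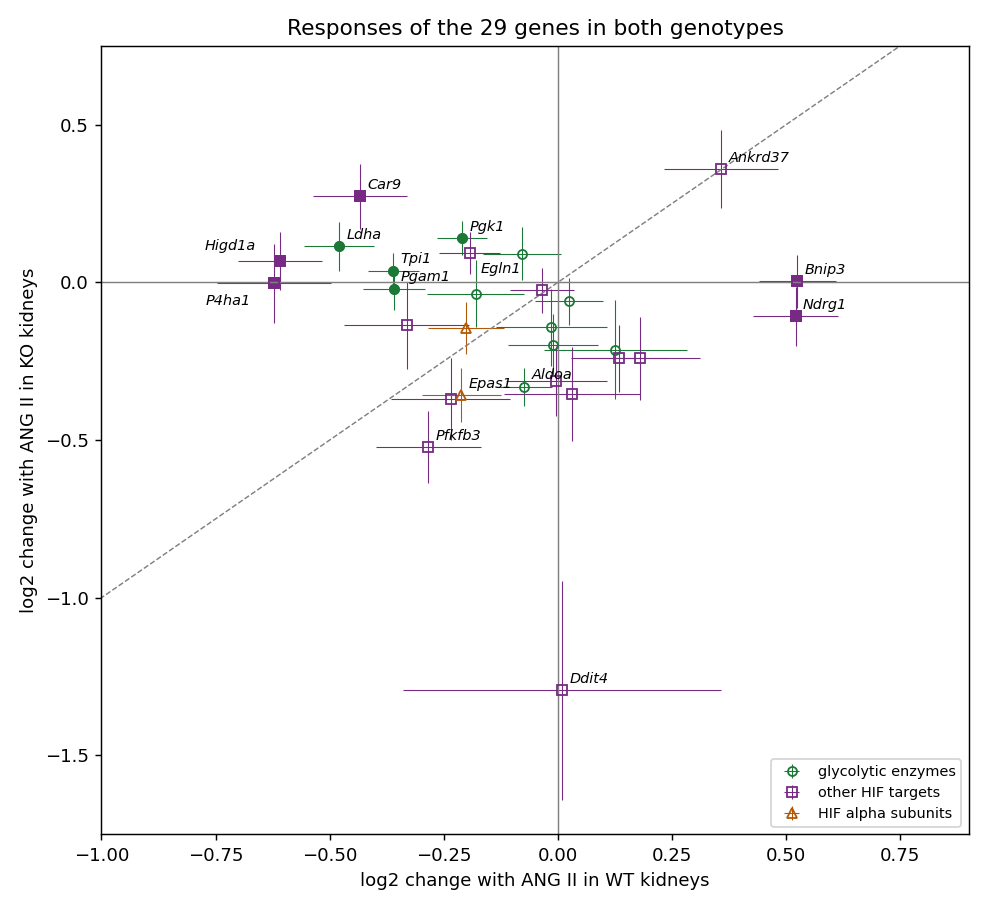
Log2 change with ANG II in WT kidneys (horizontal axis) against that in KO kidneys (vertical axis) for the 29 genes; bars are standard errors, symbols mark the 3 gene groups, filled symbols are genes whose difference of responses was called, and the dashed line marks equal responses. Tpi1, Pgk1, Pgam1, Ldha, Higd1a, P4ha1 and Car9 lie left of 0 in WT and near or above 0 in KO, Bnip3 and Ndrg1 lie to the right, and Ankrd37 lies on the line.

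At baseline, KO and WT kidneys differed in 2 of 29 members, both higher in KO, beside 8.07% of all genes (5.13% higher and 2.94% lower), so the share among the members, 6.90%, was near the background. The groups did not overlap for 13 members, beside 34.7% of all genes, and 4 probe sets were called on their own, beside 6.52% of all. None of the 11 glycolytic enzymes was called, with differences of -0.18 to 0.25 and adjusted p of 0.131 to 0.988 (limma). The median difference was -0.04 over the glycolytic enzymes, 0.06 over the other HIF targets and -0.04 over all genes. Adm, the precursor of the vasodilator peptide adrenomedullin, had ratios of 0.688, 0.711 and 1.060 in WT baseline, 0.838, 0.880 and 0.748 in WT ANG II, 1.339, 1.499 and 1.421 in KO baseline and 1.224, 0.938 and 1.189 in KO ANG II kidneys. The KO baseline kidneys were the 3 highest of the series, and 2 of 3 WT baseline kidneys the lowest. Adm was higher in KO at baseline by 0.82 ± 0.15, 1.77-fold (adjusted p = 0.00623, limma, n = 3 per group), and both of its probe sets were called higher.

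Pfkfb4, a kinase and phosphatase for the same phosphofructokinase signal as Pfkfb3, gave 0.864, 1.044 and 0.933 in WT baseline, 0.651, 0.884 and 0.898 in WT ANG II, 1.125, 1.523 and 1.290 in KO baseline and 1.026, 1.000 and 1.000 in KO ANG II kidneys. KO baseline kidneys were above all WT kidneys. It was higher in KO by 0.46 ± 0.13 (adjusted p = 0.0457, limma), a call lost with 1 probe set per gene (adjusted p = 0.0513), with probe sets tested on their own (adjusted p = 0.0527), and without any 1 of the WT baseline arrays or of KO baseline replicates 2 and 3 (adjusted p of 0.0562 to 0.183). Ddit4 had a difference of 1.20 ± 0.35 that did not pass the test (adjusted p = 0.0535, limma), although its 3 KO baseline kidneys lay above all WT kidneys; it passed under 6 other settings, with adjusted p of 0.00838 to 0.0499. Epas1 was at 0.28 ± 0.09 (adjusted p = 0.0634, limma) and was called higher with array weights (adjusted p = 0.0253), without KO baseline replicate 3 (adjusted p = 0.0400) and with 1 probe set per gene, where it was at 0.42 (adjusted p = 0.00769); its other probe set was at 0.15.

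Markers of other cell types were higher in the KO baseline kidneys: 8 of 13 for macrophages and neutrophils (median difference 0.81), 5 of 10 for fibroblasts and pericytes (0.75), 3 of 11 for endothelium (0.18) and 3 of 6 for podocytes (0.39), with none lower in these lists. Of 7 distal convoluted tubule markers 2 were lower in KO. In this comparison 8.07% of all genes were called. The mean log2 ratio of the macrophage and neutrophil markers was 0.49 to 0.94 in KO baseline arrays against -0.38 to -0.03 in WT baseline arrays, without overlap. Their part in the higher values of Adm and Pfkfb4 was not tested.

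Under ANG II, KO and WT kidneys differed in 15 of 29 members, 10 higher and 5 lower in KO, beside 25.6% of all genes (15.2% higher and 10.4% lower). The groups did not overlap for 16 members, beside 38.8% of all genes. This comparison shares its WT ANG II arrays with the WT response and with the difference of responses. Tpi1, Pgk1, Pgam1 and Ldha were higher in KO than in WT, and Aldoa was lower. The median difference was 0.07 over the glycolytic enzymes, 0.03 over the other HIF targets and -0.02 over all genes.

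The largest difference was that of P4ha1, 0.90 ± 0.12 on the log2 scale, 1.87-fold higher in KO (adjusted p = 0.000330, limma). Higd1a followed with 0.73 ± 0.09, Ldha with 0.53 ± 0.08, P4ha2 with 0.52 ± 0.14, Adm with 0.44 ± 0.15 and Car9 with 0.42 ± 0.10. Of the lower steps of glycolysis, Tpi1 was higher by 0.30 ± 0.06, Pgk1 by 0.25 ± 0.05 and Pgam1 by 0.24 ± 0.07, and Egln1 was higher by 0.25 ± 0.07. These 10 members were called higher in KO, with adjusted p of 0.000177 to 0.0483 (limma), and of them only P4ha2 had groups that met, at a shared ratio of 0.914. P4ha2 had ratios of 1.076, 0.837 and 0.924 in WT baseline, 0.914, 0.700 and 0.653 in WT ANG II, 1.084, 1.213 and 1.244 in KO baseline and 1.216, 0.914 and 1.109 in KO ANG II kidneys.

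Among the 5 members lower in KO under ANG II, Bnip3 was at -0.50 ± 0.08 (adjusted p = 0.00124, limma), Ndrg1 at -0.43 ± 0.09 and Aldoa at -0.25 ± 0.06. Egln3, the prolyl hydroxylase most strongly raised by HIF in many cells, gave 1.093, 1.125 and 0.985 in WT baseline, 0.986, 0.949 and 1.285 in WT ANG II, 0.978, 1.081 and 1.082 in KO baseline and 0.887, 0.885 and 0.760 in KO ANG II kidneys. Kdm3a, a histone demethylase induced by HIF, gave 1.105, 1.005 and 0.853 in WT baseline, 1.087, 1.052 and 1.096 in WT ANG II, 0.998, 1.002 and 0.993 in KO baseline and 0.974, 0.726 and 0.852 in KO ANG II kidneys. For both genes the KO ANG II kidneys lay below the WT ANG II kidneys. Egln3 differed by -0.34 ± 0.11 (adjusted p = 0.0403, limma) and Kdm3a by -0.35 ± 0.11 (adjusted p = 0.0291).

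Several of these calls under ANG II were lost when 1 array was left out. That of Pgam1 was lost without WT ANG II replicate 3 or KO ANG II replicate 1 or 3 (adjusted p of 0.0600 to 0.0945), that of Adm without any of the 6 arrays but KO ANG II replicate 2 (adjusted p of 0.0665 to 0.156), and that of Egln1 without WT ANG II replicate 2 or KO ANG II replicate 3 (adjusted p of 0.0629 to 0.0645). Egln3 lost its call without WT ANG II replicate 3 or KO ANG II replicate 1 or 3 (adjusted p of 0.0640 to 0.148), Kdm3a without any array but KO ANG II replicate 1 (adjusted p of 0.0521 to 0.0955), and P4ha2 without WT ANG II replicate 2 or 3 or KO ANG II replicate 1 or 3 (adjusted p of 0.0530 to 0.0701). Without WT ANG II replicate 3 the difference of Egln3 was -0.20. Other settings ended calls as well. Quantile normalization did so for Pgam1, Adm, Kdm3a and P4ha2 (adjusted p of 0.186, 0.194, 0.0905 and 0.0794), and a fit to the compared groups alone for Pgam1, Egln1, Egln3 and Kdm3a (adjusted p of 0.0814, 0.0744, 0.0970 and 0.0579). Adm lost its call under 5 other settings in all (adjusted p of 0.0543 to 0.194) and Egln3 under 5 (adjusted p of 0.0512 to 0.0970), among them array weights, the choice of probe set and the replicate block, with which the adjusted p was 0.0543 for Adm and 0.0561 for Egln3. Markers moved in this comparison too, with 8 of 13 macrophage and neutrophil markers, 4 of 11 endothelial markers and 3 of 10 fibroblast and pericyte markers called higher in KO. None of these lists' markers was called lower. The shares were 61.5%, 36.4% and 30%, beside 25.6% of all genes called. Other lists held lower calls, among them 2 of 5 erythroid markers (40%) with none higher. Of 7 intercalated cell markers 1 was higher and 2 lower (42.9%), and so it was for 7 thick ascending limb markers (42.9%). Of 17 proximal tubule markers 5 were higher and 4 lower (52.9%). The part of these markers in the member values was not tested.

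**Figure D4:**
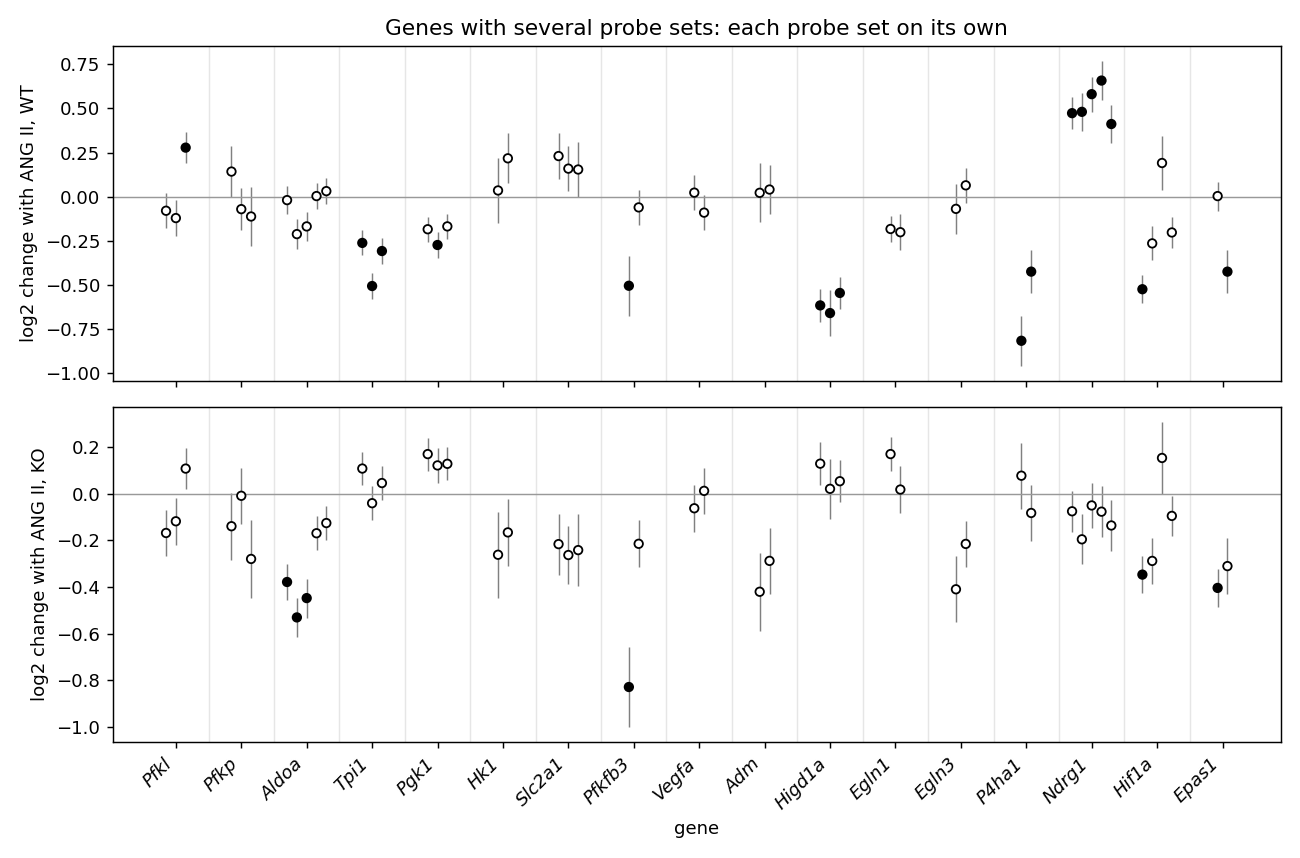
Log2 change with ANG II (vertical axes; WT above, KO below) of every probe set of the 17 members with several probe sets (horizontal axis); bars are standard errors and filled points are probe sets called at an adjusted p under 0.05 over all 45037 probe sets. All probe sets of Tpi1, Higd1a and Ndrg1 are called in the same direction in WT, while genes such as Pgk1, Pfkl, Pfkfb3, Hif1a and Epas1 hold both called and uncalled probe sets.

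Across the 5 comparisons 20 of the 29 members were called at least once, and 9 were not: Hk1, Hk2, Pfkl, Pfkm, Pfkp, Pkm, Slc2a1, Vegfa and Hif1a. Tpi1, Pgk1, Pgam1, Ldha, Bnip3, Higd1a, P4ha1, Ndrg1 and Car9 were called in 3 comparisons each, which share arrays as stated above. Vegfa had the narrowest range of ratios among the other HIF targets, with 1.063, 1.014 and 1.009 in WT baseline, 1.018, 0.999 and 0.994 in WT ANG II, 1.005, 0.992 and 0.978 in KO baseline and 1.053, 0.873 and 1.007 in KO ANG II kidneys. Slc2a1 gave 1.081, 1.027 and 0.787 in WT baseline, 1.027, 1.029 and 1.203 in WT ANG II, 1.011, 1.017 and 0.965 in KO baseline and 0.996, 0.855 and 0.707 in KO ANG II kidneys, low in 1 WT baseline kidney and 1 KO ANG II kidney and high in 1 WT ANG II kidney.

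The wider pathway was read from lists of genes outside the members. Among 16 further genes of glycolysis, Hkdc1, a hexokinase-like gene, rose by 0.24 ± 0.07 (adjusted p = 0.0202) and Bpgm, which diverts the product of Gapdh away from Pgk1, fell by 0.30 ± 0.08 (adjusted p = 0.0169) in WT kidneys. In KO kidneys Pgam2, the mutase of muscle, rose by 0.80 ± 0.10 (adjusted p = 0.000849), and Ldhc, known from testis, by 0.25 ± 0.07 (adjusted p = 0.0355). None of 8 skeletal muscle markers was called in either response, with 6 changes above 0 in WT (median 0.11) and 7 in KO (median 0.13). Under ANG II 2 of these 8 markers were called lower in KO than in WT, a share of 25% beside 25.6% of all genes. The part of these markers in the values of Pgam2 was not tested. At baseline Eno2, the enolase of neurons, was higher in KO by 0.48 ± 0.13 (adjusted p = 0.0396). Under ANG II Pgam2 and Bpgm were higher in KO, by 0.41 ± 0.10 (adjusted p = 0.0112) and 0.39 ± 0.08 (adjusted p = 0.00476), and Hkdc1 was at -0.21 ± 0.07 and called lower. The responses differed for 4 of the 16, 3 with a higher and 1 with a lower value in KO. The calls were 12.5% of this list in WT, beside 26.5% of all genes, 12.5% in KO beside 12.8%, 6.25% at baseline beside 8.07%, 18.75% under ANG II beside 25.6% and 25% in the difference beside 13.0%. The median change of this list was 0.11 in WT and 0.10 in KO, beside -0.08 and -0.04 over the glycolytic enzymes among the members; the second of these was 0.0064 without KO baseline replicate 1 and 0.0061 without KO ANG II replicate 3.

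Among 16 regulators of HIF, 1 rose and 4 fell in WT kidneys, a share of 31.25% near the 26.5% of all genes. Siah2, a ubiquitin ligase that targets the prolyl hydroxylases, fell by 0.58 ± 0.09 (adjusted p = 0.000769), and Eloc and Cul2, parts of the ligase that ubiquitinates hydroxylated HIF alpha, fell by 0.38 ± 0.07 (adjusted p = 0.00302) and 0.34 ± 0.07 (adjusted p = 0.00648). Hif3a, an alpha subunit with inhibitory forms, rose by 0.34 ± 0.07 (adjusted p = 0.00380). In KO kidneys 4 fell and none rose: Rbx1, the RING subunit of the same ligase, by 0.47 ± 0.08 (adjusted p = 0.00435), the coactivators Crebbp and Ep300 by 0.48 ± 0.09 (adjusted p = 0.00524) and 0.32 ± 0.09 (adjusted p = 0.0312), and Tcf25 by 0.21 ± 0.06 (adjusted p = 0.0332). This is 25% of the list, beside 12.8% of all genes. At baseline Rbx1 was the only one called, higher in KO by 0.30 ± 0.08 (adjusted p = 0.0443), and that share of 6.25% was near the 8.07% of all genes. Under ANG II Siah2 was higher in KO by 0.62 ± 0.09 (adjusted p = 0.000412), Eloc by 0.30 ± 0.07 (adjusted p = 0.0121) and Elob, its partner, by 0.26 ± 0.07 (adjusted p = 0.0210), and Hif3a was called lower at -0.24 ± 0.07. Under ANG II 5 of the 16 were called, beside 25.6% of all genes. The responses differed for 5 of the 16 regulators, 3 higher and 2 lower, beside 13.0% of all genes.

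Among 27 further HIF targets, 6 rose and 6 fell in WT kidneys. Tfrc, the transferrin receptor, fell by 1.51 ± 0.18 (adjusted p = 0.000145) on the log2 scale, and Gbe1, which branches glycogen, by 0.75 ± 0.16 (adjusted p = 0.00587). Angptl4, an inhibitor of lipoprotein lipase, rose by 0.68 ± 0.12 (adjusted p = 0.00218), and Ppp1r3c, which targets a phosphatase to glycogen, by 0.58 ± 0.10 (adjusted p = 0.00121). In KO kidneys 1 rose and 5 fell: Cxcr4, a chemokine receptor, fell by 1.02 ± 0.14 (adjusted p = 0.00118), Wsb1, an adaptor of a ubiquitin ligase, by 0.76 ± 0.18 (adjusted p = 0.0199), Edn1, the precursor of endothelin, by 0.58 ± 0.12 (adjusted p = 0.00908) and Lox, which crosslinks collagen, by 0.56 ± 0.12 (adjusted p = 0.0138). At baseline 6 were higher in KO and none lower, led by Cxcr4 with 0.89 ± 0.14 (adjusted p = 0.00256), Edn1 with 0.86 ± 0.12 (adjusted p = 0.00139), Angptl4 with 0.79 ± 0.12 (adjusted p = 0.00271) and Wsb1 with 0.69 ± 0.18 (adjusted p = 0.0366). Under ANG II 7 were higher and 4 lower in KO, and the largest were Tfrc with 1.45 ± 0.18 (adjusted p = 0.000130), Ak4, a mitochondrial adenylate kinase, with 0.77 ± 0.11 (adjusted p = 0.000560), Kdr, a receptor of Vegfa, with 0.74 ± 0.07 (adjusted p = 1.29e-05) and Gbe1 with 0.63 ± 0.16 (adjusted p = 0.0145). The responses differed for 13 of the 27, 4 higher and 9 lower. The calls were 44.4% of this list in WT, beside 26.5% of all genes, 22.2% in KO beside 12.8%, 22.2% at baseline beside 8.07%, 40.7% under ANG II beside 25.6% and 48.1% in the difference beside 13.0%. Cxcr4 is also expressed by leukocytes and Edn1 by endothelium, whose marker lists were higher in KO baseline kidneys as given above. Kdr is itself in the list of endothelial markers and was counted in both lists. The part of these cell types in these values was not tested.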

How the data were processed

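Kidney RNA of 12 mice, 3 per group, was hybridised to Affymetrix Mouse Genome 430 2.0 arrays. RMA, which corrects background, normalizes by quantiles and summarises probes, is named per the submitters' processing notes. The deposited values are linear ratios, each probe set being divided by its median of all arrays. The values themselves show this, as the sources used here do not give the division: the median lay within 0.002 of 1 for 45099 of 45101 probe sets. No pair of arrays held identical values, and array medians were 0.986 to 1.014. Ratios keep no intensity, so signal over background is unknown.

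The 64 control probe sets were left out. Of 45037 others, 34945 carried 1 symbol in the platform annotation and gave 18193 genes (mean log2 ratio per gene), 932 carried several and 9160 none; the last 2 kinds were not used. With limma 3.58.1 (R 4.3.3), a mean per group was fitted to the 12 arrays together, without an intensity trend and with no replicate block, leaving 8 residual degrees of freedom. There were 5 comparisons, tested two-sided with Benjamini-Hochberg adjustment over all genes within each, and genes were called at an adjusted p under 0.05. The procedure was tested on simulated data.

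Deviations of same-numbered WT arrays from their group means correlated at 0.23, 0.24 and 0.12, those of KO arrays at -0.03, -0.15 and 0.05. The labels do not state a pairing. This check took in no differently numbered arrays, so it cannot decide whether the numbers pair the WT arrays. The main fit used no block, and a block for the WT arrays was added as a further setting after the data were seen. It changed 2 calls, given beside the results.

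The members and gene lists were chosen with earlier results of these data known. Members called in at least 1 comparison are given per array, and so, beyond that rule, are Pkm, Slc2a1, Vegfa and Hif1a, with the others by ranges; of other pathway lists up to 4 called genes with the largest change per comparison are named, and marker lists are given as counts. P-values rest on the spread between mice within groups, pooled over the 4 groups and moderated over all genes. They do not measure the spread of the compared groups alone. Promoter sequences are RefSeq's for GRCm38.p6, and 27 of the 29 members with a value had an entry.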

Additional observations from a re-analysis of the deposited data

Results flagged for a closer look

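The responses to ANG II differed between KO and WT by the test of the difference itself for 9 members and for genes of the other pathway lists, of which the 12 with the largest differences, up to 4 a list, are given; values are KO response minus WT response on the log2 scale, and no array group was large enough (3 kidneys) to look for single outlying arrays. Among the glycolytic enzymes the differences were 0.40 for Tpi1, 0.35 for Pgk1, 0.34 for Pgam1 and 0.59 for Ldha. Among the other HIF targets of the member list they were -0.52 for Bnip3, 0.68 for Higd1a, 0.62 for P4ha1, -0.63 for Ndrg1 and 0.71 for Car9. Of the further genes of glycolysis, Pgam2 differed by 0.72, Eno2 by -0.67, Bpgm by 0.41 and Tigar by 0.37. Of the HIF regulators, Siah2 differed by 0.79, Rbx1 by -0.54, Eloc by 0.44 and Cul2 by 0.37. Of the further HIF targets, Tfrc differed by 1.85, Wsb1 by -1.27, Angptl4 by -1.14 and Cxcr4 by -0.83.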

How the results depend on the processing

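The 41 calls of members were recomputed under 757 alternative values, of which none reversed in direction, 649 kept the call and 108 lost it; 24 calls held under every alternative run, and most of those lost are given beside the results with the arrays whose absence ends them. Direction could not reverse under settings that alter only the error or the set of genes tested, as these keep the log2 value. Among them were the fit to the compared groups alone, the replicate block and leaving out genes of low spread. The choice of probe set likewise kept the value of the 12 members with 1 probe set. With array weights 4 members were called at baseline. Leaving out 1 array gave 9 to 13 members in the WT response, 1 to 4 in the KO response, 7 to 10 in the difference, 1 to 2 at baseline and 9 to 14 under ANG II. With genes of low spread left out, which shortens the lists, the median of the glycolytic enzymes was -0.13 in WT, -0.089 in KO, 0.0074 in the difference, 0.028 at baseline and 0.13 under ANG II, and that of the other HIF targets -0.19 in KO, -0.27 in the difference and 0.13 at baseline. Leaving out 1 array gave medians of the glycolytic enzymes of -0.14 to -0.062 in WT, -0.077 to 0.0064 in KO, 0.057 to 0.18 in the difference, -0.044 to -0.0089 at baseline and 0.030 to 0.16 under ANG II. For the other HIF targets these were -0.11 to -0.046, -0.20 to -0.021, -0.29 to -0.084, 0.033 to 0.13 and -0.060 to 0.14 in the same order. Over all genes, quantile normalization again gave 2591 calls in WT (25.8% of them higher, against 41.1%) and 2305 under ANG II (72.0% higher, against 59.4%). Array weights gave 3565 calls in KO and 2552 at baseline (52.7% higher, against 63.6%), and a fit to the compared groups alone 2794 under ANG II. Leaving out 1 array gave 2589 to 5472 calls in WT, 935 to 2108 in KO, 1485 to 2748 in the difference, 570 to 1168 at baseline and 2738 to 5428 under ANG II; the causes were not tested. The replicate number as a block in all groups left Ankrd37 in WT and Adm and Egln3 under ANG II without their calls; members called with this replicate block were 10, 5, 9, 3 and 14 in the same order. Same-numbered KO arrays did not deviate together, and the labels state no pairing in any group.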
